A study of Mus musculus with 7 samples.

Results

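The mouse Cyp2a and Cyp2b genes encode cytochrome P450 enzymes of the endoplasmic reticulum, and they lie side by side with the related gene Cyp2g1 in one cluster on chromosome 7. Levels of 8 genes were examined here, namely Cyp2a4, Cyp2a5, Cyp2a12, Cyp2a22, Cyp2b9, Cyp2b10, Cyp2b13 and Cyp2g1. They were chosen by name, with earlier results of these data known, and all 8 were found among the 51426 genes listed for each liver. All 8 also passed the filter on low counts, which left 14754 genes in the test.

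Liver mRNA was sequenced from 3 wild-type (WT) mice and 4 TET1 whole body knockout (KO) mice, 1 library per mouse. TET1 is an enzyme that oxidises 5-methylcytosine in DNA, and the study asked what its loss does to a liver under dietary fat. All mice were males labelled as strain C57BL/6J, and all had eaten a high-fat diet (HFD) for 16 weeks from an age of 8 weeks. Livers without the HFD were not analysed here. Heterozygous B6;129S4-Tet1tm1.1Jae/J mice were the source of one whole body KO line, and another was made with a Cre under the β-actin promoter. The labels do not name the line that was sequenced, and the genotype notation used with the sequencing points to the former. Both lines lack the gene throughout the body, so that an effect arising in the liver and one arising elsewhere in the body cannot be told apart.

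P450 enzymes insert an oxygen atom into fat-soluble molecules, taking electrons from the reductase POR and holding haem at their active site. The Cyp2a and Cyp2b enzymes act on steroids and on foreign compounds, and several of their genes are textbook targets of the nuclear receptors CAR (Nr1i3) and PXR (Nr1i2). In the mouse liver some of them, such as Cyp2a4, Cyp2b9 and Cyp2b13, are known for being expressed more in females than in males, a difference kept by the pattern of growth hormone secretion and by STAT5b.

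Cyp2a22 was the gene of the cluster that fell in the KO livers, by 12.0-fold (log2 fold change -3.59, SE 0.63, 3 WT and 4 KO livers). WT replicate 3, at 11.9 CPM, lay only just above the highest KO liver at 8.81 CPM, and the call was lost when any of 3 livers was left out in turn or with robust dispersions. Its closest paralog Cyp2a12 stood at 532 ± 102 CPM in WT livers and 446 ± 13.2 CPM in KO livers (SD, n = 3 and n = 4) and did not pass the test. CPM is the count of a gene scaled to the size of its library by TMM. Cyp2a4, Cyp2b9 and Cyp2b13 had lower mean levels in the KO livers as well, but 1 of the 3 WT livers was as low as the KO livers in these genes and none of them passed the test. Cyp2a5, with Cyp2a12 among the most abundant genes of the group, was not called in either direction.

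The library totals lay between 15005277 and 22746138 counts, so that 1 CPM equalled 15.0 to 22.7 counts before scaling. Genotypes were compared with edgeR's quasi-likelihood test, and calls were made at a p under 0.05 after Benjamini-Hochberg adjustment over all tested genes. This called 298 genes, or 2.02% of those tested, of which 169 (1.15%) were lower and 129 (0.874%) higher in KO livers. Scaling by library size only gave 312 lower and 107 higher genes. Tet1 itself was listed with at most 4 counts in any library of either genotype, which cannot check the labels. Summed hepatocyte markers, such as albumin, held 67074 to 87299 CPM in WT livers and 77658 to 85310 CPM in KO livers. Because whole liver was sequenced, fewer cells of a type and less RNA per cell cannot be told apart in any of the values below.

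WT replicate 3 stood apart from the other WT livers in this gene cluster. Its Cyp2a22 level was 13.0% of the mean of WT replicates 1 and 2, its Cyp2b13 level 12.2%, its Cyp2a4 level 17.4% and its Cyp2b9 level 36.3%. Cyp2a5 and Cyp2a12 were less affected, at 59.0% and 70.1% of that mean. Results are therefore given with and without this liver where it matters.

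The 8 genes form close pairs, and the sequences of the pairs are shown because paralogs of nearly the same promoter had different levels in the same livers. Promoter windows of 300 bases, which span a start of each gene and lie mostly upstream of it, were taken from RefSeq on GRCm38.p6 for 7 of the 8 genes. Among them, Cyp2b13 and Cyp2b9 differed at 2 of 300 bases (99.3% identity). Cyp2a4 and Cyp2a5 differed at 5 of 299 aligned bases (98.3%), and Cyp2a22 and Cyp2a12 at 28 of 289 aligned bases (90.3%), with 3 further bases in gaps.

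The windows of Cyp2a22 (chr7:26939337-26939636, minus strand) and Cyp2a12 (chr7:27028840-27029139, plus strand) are printed 5′ to 3′. Capitals mark the bases that differ between the pair or lie in a gap.
Cyp2a22: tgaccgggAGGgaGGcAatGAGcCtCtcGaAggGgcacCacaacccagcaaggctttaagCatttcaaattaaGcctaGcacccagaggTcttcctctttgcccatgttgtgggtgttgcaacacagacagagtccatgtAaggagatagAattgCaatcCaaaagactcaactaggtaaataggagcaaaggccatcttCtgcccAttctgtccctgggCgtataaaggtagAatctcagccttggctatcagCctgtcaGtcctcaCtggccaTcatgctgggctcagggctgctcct
Cyp2a12: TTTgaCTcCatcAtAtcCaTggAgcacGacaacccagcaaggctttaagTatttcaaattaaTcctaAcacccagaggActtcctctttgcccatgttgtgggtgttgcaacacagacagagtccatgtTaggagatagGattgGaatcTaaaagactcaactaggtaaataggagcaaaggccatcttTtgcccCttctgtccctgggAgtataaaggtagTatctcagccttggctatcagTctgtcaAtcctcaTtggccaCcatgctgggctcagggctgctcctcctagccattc

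The windows of Cyp2a4 (chr7:26306942-26307241, plus strand) and Cyp2a5 (chr7:26835089-26835388, plus strand) start 1 base apart in the alignment. Capitals again mark the differing bases.
Cyp2a4: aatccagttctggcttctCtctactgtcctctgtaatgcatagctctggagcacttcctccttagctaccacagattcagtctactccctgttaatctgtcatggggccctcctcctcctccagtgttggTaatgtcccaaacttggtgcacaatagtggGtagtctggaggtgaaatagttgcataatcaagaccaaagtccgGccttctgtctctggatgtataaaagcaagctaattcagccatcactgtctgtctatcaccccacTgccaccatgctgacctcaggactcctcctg
Cyp2a5: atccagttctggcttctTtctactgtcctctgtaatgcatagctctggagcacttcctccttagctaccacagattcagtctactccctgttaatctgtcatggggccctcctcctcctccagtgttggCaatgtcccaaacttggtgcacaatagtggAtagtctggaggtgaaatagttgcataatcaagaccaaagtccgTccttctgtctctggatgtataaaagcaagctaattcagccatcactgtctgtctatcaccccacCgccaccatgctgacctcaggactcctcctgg

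The windows of Cyp2b13 (chr7:26061245-26061544, plus strand) and Cyp2b9 (chr7:26173159-26173458, plus strand) differ only at the capital letters.
Cyp2b13: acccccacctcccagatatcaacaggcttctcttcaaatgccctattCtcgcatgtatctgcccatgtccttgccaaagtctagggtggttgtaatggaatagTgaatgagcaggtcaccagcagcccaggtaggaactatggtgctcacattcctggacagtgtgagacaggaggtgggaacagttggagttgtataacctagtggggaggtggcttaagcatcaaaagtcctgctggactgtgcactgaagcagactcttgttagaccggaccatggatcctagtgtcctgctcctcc
Cyp2b9: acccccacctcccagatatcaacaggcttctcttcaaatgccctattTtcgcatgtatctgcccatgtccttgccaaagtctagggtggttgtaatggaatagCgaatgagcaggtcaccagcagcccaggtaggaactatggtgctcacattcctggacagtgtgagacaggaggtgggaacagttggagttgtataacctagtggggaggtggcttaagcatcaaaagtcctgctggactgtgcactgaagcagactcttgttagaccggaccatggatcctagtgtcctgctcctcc

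The coding sequences were also close. Those of Cyp2a4 and Cyp2a5 were identical at all but 23 of 1485 bases (98.5%), those of Cyp2a12 and Cyp2a22 at all but 45 of 1479 bases (97.0%), and those of Cyp2b9 and Cyp2b13 at all but 110 of 1476 bases (92.5%). A read can therefore be hard to place. Windows of 100 bases from a protein-coding transcript of each gene were sought in the protein-coding transcripts of all other genes. The share also present in another gene was 11.3% for Cyp2a4, 9.56% for Cyp2a5, 6.94% for Cyp2a12, 5.08% for Cyp2a22 and 1.18% for both Cyp2b9 and Cyp2b13. Sequence shared with pseudogenes was not counted. For windows of 50 bases it reached 36.5% for Cyp2a4. How the authors' counting treated reads that fit more than 1 gene is not given in the sources used here, so the split of counts between paralogs is uncertain to that extent.

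Some short motifs were looked for on both strands of the windows. AGGTCA, a hexamer bound by nuclear receptors, occurred in 4 of the 7 windows (Cyp2a4, Cyp2a5, Cyp2b9 and Cyp2b13) and in 16.3% of the 32851 promoters of the RefSeq table. TTCNNNGAA, the form bound by STAT factors, was in 0 of the 7 windows and in 8.30% of all promoters. CAAAGTCCA, an HNF4-type motif, was in 0 of 7 against 0.475% of all, and GTGACT in 0 of 7 against 15.4%. After the windows had been read, 2 further motifs were searched. CAAAGTCC, which is the start of CAAAGTCCA, was in Cyp2a4 and Cyp2a5 and in 1.42% of all promoters. TTGCATAA, a form bound by bZIP factors, was in Cyp2a4, Cyp2a5 and Cyp2b10 and in 0.743% of all. Cyp2a4 and Cyp2a5 gave the same matches for every motif searched, and so did Cyp2b9 and Cyp2b13. A match describes letters only, and no binding was measured.

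Levels of different genes were compared per kilobase (kb) of exon. In WT livers Cyp2a12 stood highest at 321 ± 61.7 CPM per kb (SD, n = 3), followed by Cyp2a5 at 262 ± 72.8, and these neighbours differed by less than their spread. Cyp2b9 came next at 113 ± 57.5 CPM per kb. Cyp2a22 at 29.3 ± 21.2, Cyp2b13 at 16.2 ± 11.9 and Cyp2a4 at 11.1 ± 7.40 CPM per kb differed by less than the SD of Cyp2a22. Cyp2b10 at 0.351 ± 0.289 and Cyp2g1 at 0.159 ± 0.0914 CPM per kb were barely detected.

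In KO livers the order changed. Cyp2a5 stood at 309 ± 100 CPM per kb (SD, n = 4), Cyp2a12 at 270 ± 7.96 and Cyp2b9 at 51.3 ± 21.1. Below them were Cyp2b13 at 6.89 ± 4.87, Cyp2a4 at 2.80 ± 1.78 and Cyp2a22 at 2.42 ± 1.30 CPM per kb. Cyp2a22 thus moved from the fourth to the sixth place, although these 3 levels differed by less than the SD of Cyp2b13. Cyp2g1 at 0.462 ± 0.285 and Cyp2b10 at 0.206 ± 0.155 CPM per kb again closed the order. Among the 68 cytochrome P450 genes tested, Cyp2a5 ranked 6th and Cyp2a12 8th by mean CPM over the 7 livers, a rank that is not corrected for length.

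**Figure D1:**
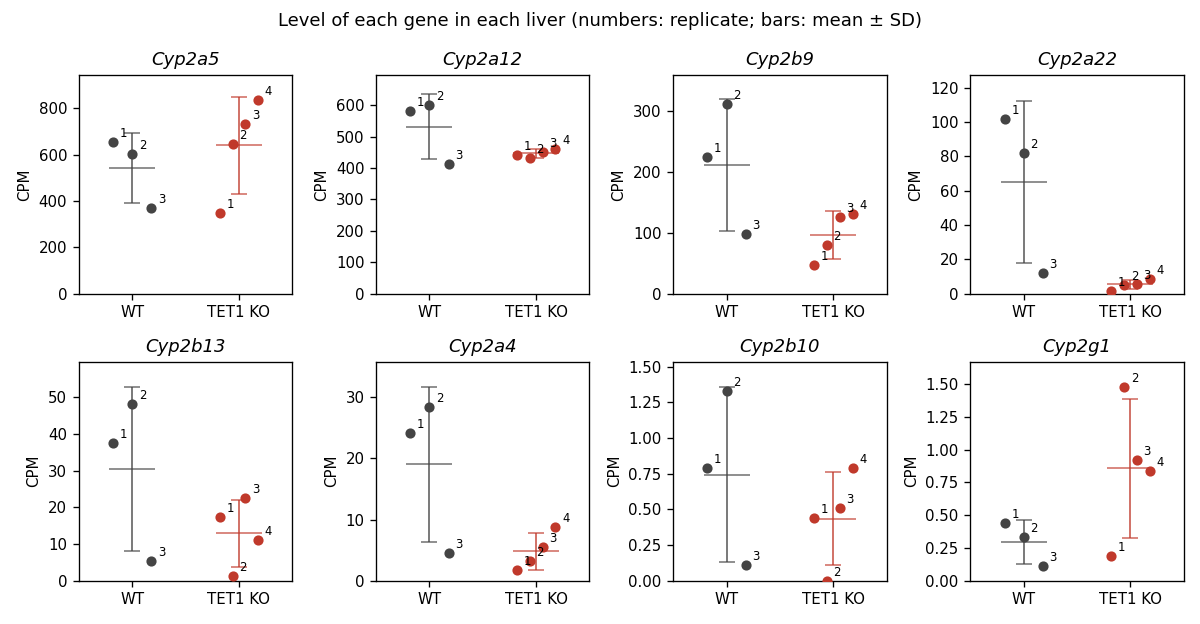
Level of each of the 8 genes in CPM (vertical axes, linear from 0) in 3 WT and 4 TET1 KO livers, 1 point per liver with its replicate number, and the mean ± SD as a bar. The KO points of Cyp2a22 all lie under the lowest WT point of 11.9 CPM, whereas WT replicate 3 lies among the KO livers in Cyp2a4, Cyp2b9 and Cyp2b13.

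Of the 8 genes, 1 was called, Cyp2a22, and it was lower (12.5% of the members against 1.15% of all tested genes called lower). The 8 genes were chosen with earlier results of these data known, so the shares and counts of this paragraph are descriptions. The log2 fold change was negative for 6 of the 8, with a median of -0.93 beside 0.01 over all tested genes. Cyp2g1 passed the low-count filter through KO replicates 2 to 4 alone, so it had to be higher in the KO livers to be tested, and its p is not counted here. Of the other 7, an unadjusted p under 0.05 was reached by 3, namely Cyp2a22, Cyp2a4 and Cyp2b9, beside 26.3% of all tested genes. The livers of the genotypes did not overlap in 1 of the 8 (12.5%), which lies under the 22.5% of all tested genes. The log2 fold changes of the group ran from -3.59 to 1.47.

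Cyp2a22 (ENSMUSG00000091867, chr7:26931631-26939413 of GRCm38, minus strand) encodes a Cyp2a enzyme. Its levels were 102, 81.7 and 11.9 CPM in WT replicates 1 to 3 and 1.75, 5.35, 5.63 and 8.81 CPM in KO replicates 1 to 4. Every KO liver was below every WT liver, although WT replicate 3 was closer to the KO livers than to the other WT livers. The mean was 65.2 ± 47.3 CPM (SD, n = 3) in WT and 5.39 ± 2.89 CPM (SD, n = 4) in KO livers, which gave a log2 fold change of -3.59 (SE 0.63, 95% interval -4.97 to -2.20, edgeR adjusted p = 0.0212). By p it was the 99th of the 14754 genes. It had the lowest log2 fold change of the 68 P450 genes tested. DESeq2, which called 8.69% of the genes it tested, also called 1 of the 8 genes, again Cyp2a22 (adjusted p = 0.00117). The gene was counted in every liver, with 216 to 2074 counts in WT and 28 to 190 in KO livers.

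The call of Cyp2a22 depended on single livers. Without WT replicate 2 its log2 fold change was -3.40 (edgeR adjusted p = 0.109), without KO replicate 2 it was -3.60 (0.0593) and without KO replicate 3 it was -3.62 (0.0686). With robust dispersions it was -3.59 (0.0785). Without WT replicate 3 it was -4.10 (0.00174).

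Cyp2a12 (ENSMUSG00000060407, chr7:27029090-27036818, plus strand), the steroid hydroxylase closest to Cyp2a22 in sequence, varied little among the KO livers. Its levels were 582, 599 and 414 CPM in WT livers and 442, 431, 451 and 462 CPM in KO livers, whose coefficient of variation was 2.95%. WT replicate 3 had the lowest level of all 7 livers. The log2 fold change was -0.25 (SE 0.16, 95% interval -0.61 to 0.10, edgeR adjusted p = 0.331), and with a liver left out it lay between -0.42 (without WT replicate 3, adjusted p = 0.186) and -0.17 (without WT replicate 2, 0.670).

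Cyp2a4 (ENSMUSG00000074254, chr7:26307192-26315088, plus strand) encodes a steroid hydroxylase that is more abundant in the female mouse liver. It was measured at 24.1, 28.4 and 4.58 CPM in WT livers and at 1.69, 3.24, 5.57 and 8.72 CPM in KO livers. WT replicate 3 lay between KO replicates 2 and 3, so the genotypes overlapped. The mean was 19.0 ± 12.7 CPM (SD, n = 3) in WT and 4.81 ± 3.06 CPM (SD, n = 4) in KO livers. This gave a log2 fold change of -1.97 (SE 0.57, 95% interval -3.23 to -0.70, edgeR adjusted p = 0.0814). Of the 14 alternatives run, 3 called it lower, namely when WT replicate 3 was left out (-2.44, adjusted p = 0.0191), when KO replicate 4 was left out (-2.43, 0.0438) or when no filter on low counts was used (-1.99, 0.0480). DESeq2 gave an adjusted p of 0.0922. The smallest change was found without WT replicate 2 (-1.57, edgeR adjusted p = 0.340).

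Cyp2a5 (ENSMUSG00000005547, chr7:26835339-26843264, plus strand) encodes the coumarin hydroxylase of the mouse, the counterpart of human CYP2A6. Its levels were 654, 603 and 371 CPM in WT livers and 350, 645, 731 and 835 CPM in KO livers. The ranges overlapped almost fully, with WT replicate 3 and KO replicate 1 at the bottom. The mean was 542 ± 151 CPM in WT and 640 ± 208 CPM in KO livers (SD, n = 3 and n = 4). The log2 fold change of 0.24 (SE 0.29) had a 95% interval from -0.39 to 0.87 (edgeR adjusted p = 0.616), which covers a loss as well as a gain. With a liver left out it lay between 0.01 (without WT replicate 3, adjusted p = 0.992) and 0.44 (without KO replicate 1, 0.254).

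Cyp2b9 (ENSMUSG00000040660, chr7:26173350-26210661, plus strand) is the most abundant Cyp2b gene of these livers and is known as a female-predominant P450. It was measured at 224, 312 and 97.3 CPM in WT livers and at 47.7, 80.4, 126 and 131 CPM in KO livers. WT replicates 1 and 2 exceeded all KO livers, and WT replicate 3 lay inside the KO range. The mean was 211 ± 108 CPM (SD, n = 3) in WT and 96.2 ± 39.6 CPM (SD, n = 4) in KO livers. This gave a log2 fold change of -1.13 (SE 0.39, 95% interval -1.99 to -0.28, edgeR adjusted p = 0.107). With a liver left out it lay between -1.50 (without WT replicate 3, adjusted p = 0.0576) and -0.75 (without WT replicate 2, 0.429). The 7 livers stood in the same order in Cyp2b9 as in Cyp2a4, from WT replicate 2 at the top down to KO replicate 1.

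Cyp2b13 (ENSMUSG00000040583, chr7:26061388-26096197, plus strand), another gene of female-predominant expression, varied widely within both genotypes, with a coefficient of variation of 73.7% in WT and 70.7% in KO livers. Its levels were 37.6, 48.2 and 5.24 CPM in WT livers and 17.2, 1.13, 22.4 and 11 CPM in KO livers. The highest liver, WT replicate 2, exceeded the lowest, KO replicate 2, by 42.7-fold, and WT replicate 3 lay below 3 of the 4 KO livers. Genotype gave a log2 fold change of -1.23 (SE 0.75, 95% interval -2.88 to 0.43, edgeR adjusted p = 0.313), and with a liver left out it lay between -1.74 (without WT replicate 3, adjusted p = 0.168) and -0.74 (without WT replicate 2, 0.707). Without KO replicate 2 it was -0.87 (0.388).

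Cyp2b10 (ENSMUSG00000030483, chr7:25897658-25926624, plus strand), the classical CAR target that phenobarbital induces in mouse liver, was close to the detection limit. It was counted 16, 32 and 2 times in WT livers and 7, 0, 10 and 17 times in KO livers, that is between 0 and 1.33 CPM. In KO replicate 2 a count of 0 allows up to 0.211 CPM, a limit of 3 counts that covers counting error only. In edgeR's test the log2 fold change was -0.73 (SE 0.73, 95% interval -2.33 to 0.88, edgeR adjusted p = 0.539), and it was 0.00 without WT replicate 2 and -1.20 without WT replicate 3. No difference between the genotypes was detected, and whether the few counts or the spread between livers limited this was not tested.

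Cyp2g1 (ENSMUSG00000049685, chr7:26808927-26821197), a P450 gene known from the olfactory mucosa, had 9, 8 and 2 counts in WT livers and 3, 21, 18 and 18 counts in KO livers. KO replicates 2 to 4 exceeded all WT livers, whereas KO replicate 1 lay between WT replicates 2 and 3. Only these 3 KO livers exceeded the low-count filter, so the gene was tested because of the livers in which it was high, and its log2 fold change of 1.47 (SE 0.63) is given as a description. In the fit with no filter on low counts it was 1.44 (SE 0.60, edgeR adjusted p = 0.205). Leaving out KO replicate 2, 3 or 4 removed the gene from the filtered test, so whether its change rests on 1 of these livers was not tested.

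**Figure D2:**
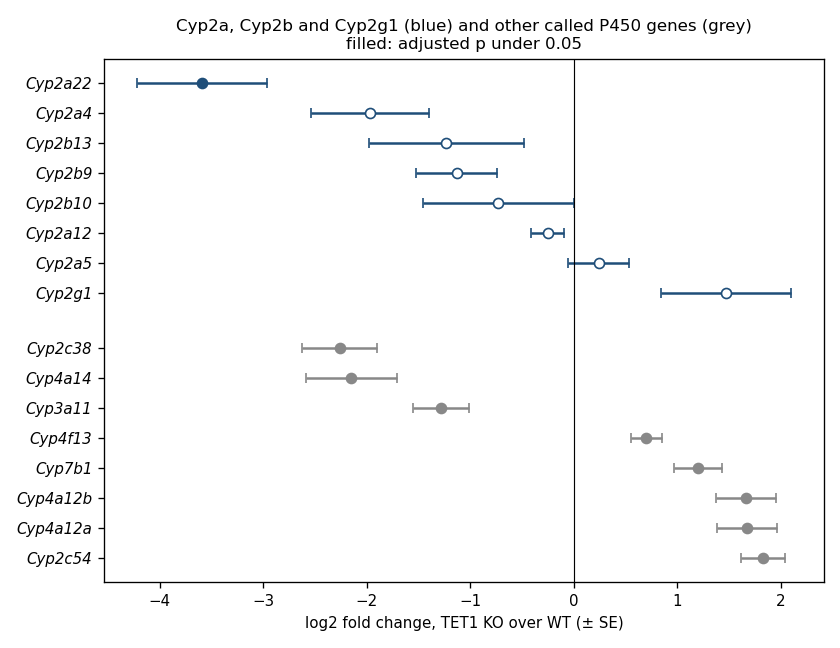
Log2 fold change of TET1 KO over WT livers (horizontal axis, bars ± SE) for the 8 genes in blue and for the 8 other P450 genes that were called in grey, with filled symbols at an edgeR adjusted p under 0.05. Cyp2a22 lies farthest to the left at -3.59, and it is the only filled blue symbol.

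The counts of the 8 genes were shared out differently in the KO livers. Summed over the 8 genes, the level was 1626, 1673 and 904 CPM in WT livers and 861, 1168, 1343 and 1458 CPM in KO livers, which overlapped. Cyp2a5 and Cyp2a12 together made up 76.0%, 71.8% and 86.8% of this sum in WT livers and 92.0%, 92.2%, 88.0% and 88.9% in KO livers. Cyp2a22, Cyp2a4, Cyp2b9 and Cyp2b13 together made up 23.9%, 28.1% and 13.2% in WT livers against 7.94%, 7.71%, 11.9% and 11% in KO livers. These shares did not overlap between the genotypes. They follow from the levels already given, they were formed after those levels were seen, and they are given without a test.

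Ratios between close paralogs were formed within each liver, which removes any factor that scales both genes alike. The 3 pairs were set by sequence, but after the levels had been seen, so the ratios restate the levels above and are given without a test. Cyp2a22 counts were 17.5%, 13.7% and 2.88% of the Cyp2a12 counts in WT livers and 0.397%, 1.24%, 1.25% and 1.91% in KO livers. The log2 ratio was -3.50 ± 1.41 in WT and -6.59 ± 0.97 in KO livers (SD, n = 3 and n = 4), and all 3 WT livers exceeded all 4 KO livers.

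Cyp2a4 counts were 3.69%, 4.72% and 1.24% of the Cyp2a5 counts in WT livers and 0.483%, 0.502%, 0.763% and 1.04% in KO livers. The genotypes overlapped in Cyp2a4 itself but not in this ratio, and WT replicate 3 was low in both genes. The log2 ratio was -5.17 ± 1.03 in WT and -7.24 ± 0.53 in KO livers (SD, n = 3 and n = 4). The ratio of Cyp2b13 to Cyp2b9, whose promoter windows differ at 2 bases, showed no such separation. It was 16.7%, 15.5% and 5.39% in WT livers and 36.0%, 1.40%, 17.8% and 8.41% in KO livers.

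**Figure D3:**
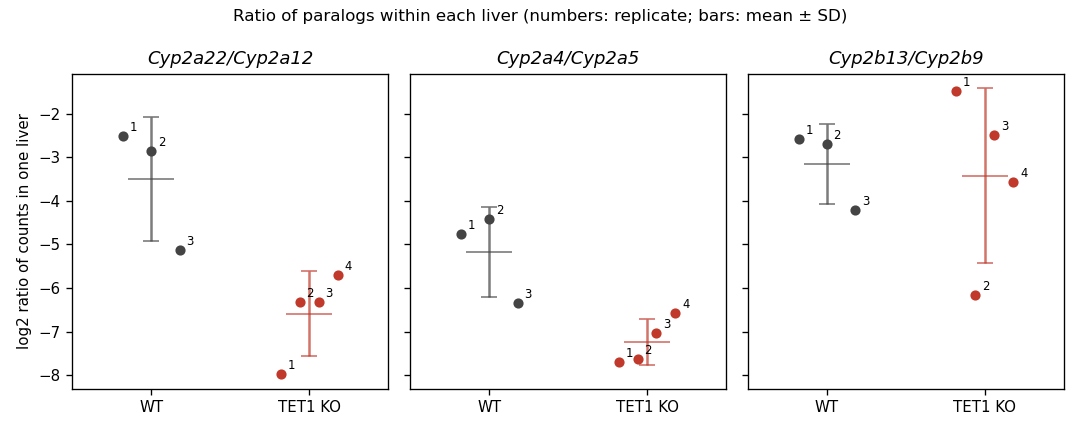
Log2 ratio of counts of 2 paralogs within 1 liver (vertical axis, shared by the panels), 1 point per liver with its replicate number, and the mean ± SD for 3 WT and 4 TET1 KO livers. The ratios of Cyp2a22 to Cyp2a12 and of Cyp2a4 to Cyp2a5 do not overlap between the genotypes, and the ratio of Cyp2b13 to Cyp2b9 does.

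When the counts of each pair were summed before the test, which makes the split of reads between the paralogs irrelevant, no pair was called. Cyp2a22 and Cyp2a12 together had a log2 fold change of -0.40 (SE 0.18, edgeR adjusted p = 0.188), Cyp2b9 and Cyp2b13 together -1.15 (SE 0.38, adjusted p = 0.103), and Cyp2a4 and Cyp2a5 together 0.20 (SE 0.29, adjusted p = 0.684). In the first and the last of these sums the abundant paralog holds most of the counts.

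**Figure D4:**
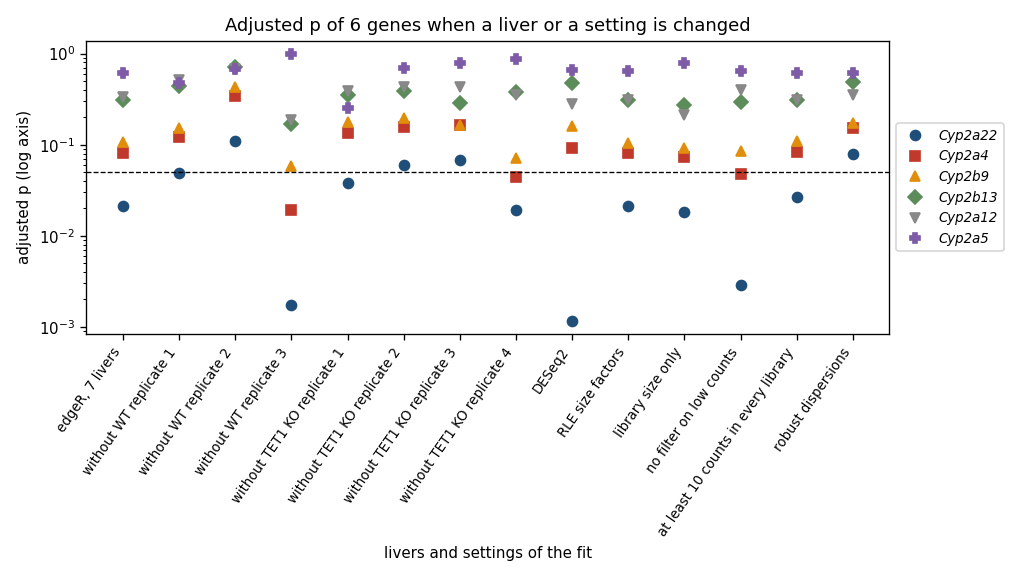
Adjusted p (vertical log axis) of 6 genes in the fit of all 7 livers, with each liver left out in turn, and with other settings of the fit (horizontal axis), with a dashed line at 0.05. Cyp2a22 ranges from 0.00117 to 0.109 and crosses the line, Cyp2a4 from 0.0191 to 0.340, and Cyp2b9 stays above it, from 0.0576 to 0.429.

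The neighbours of the cluster were looked at next. Of 12 tested, among them Cyp2f2 and Cyp2s1, 0 were called by edgeR and 0 by DESeq2, 0 had an unadjusted p under 0.05, and they had a median log2 fold change of 0.09. Cyp2b19 and Cyp2b23, the other Cyp2b genes, had 0 counts and 1 count in all 7 livers together.

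Beyond these 8, 60 other P450 genes were tested out of 92 listed, of which 5 were called higher and 3 lower (13.3% called, median log2 fold change -0.18). Higher were Cyp7b1, an oxysterol hydroxylase (1.20), Cyp4a12a (1.67) and Cyp4a12b (1.66), which hydroxylate fatty acids and are near-identical paralogs of uncertain split, Cyp4f13 (0.70) and Cyp2c54 (1.83). Lower were Cyp3a11 (-1.28), a major drug-metabolising P450 and PXR target, Cyp4a14 (-2.15), a PPARα target, and Cyp2c38 (-2.26). Livers did not overlap in 19 of the 60 (31.7%). The share called was 12.5% in the 8 genes and 13.3% in the other P450 genes. Of the 16 called genes among these and the responsive genes, NRF2 targets and sex-biased genes described next, 15 were no longer called when at least 1 liver was left out, most of them (14) without WT replicate 2. Cyp2c54 was the exception.

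The regulators of the Cyp2a and Cyp2b genes were measured in the same livers. Nr1i3, which encodes CAR, was at 519, 423 and 323 CPM in WT and 736, 584, 616 and 553 CPM in KO livers. All KO livers were above all WT livers, but the log2 fold change of 0.56 (SE 0.19) did not pass edgeR's test (adjusted p = 0.105). DESeq2 gave an adjusted p of 0.0495 for it. The values for Nr1i2 (PXR) were 0.20 (SE 0.18, edgeR adjusted p = 0.492), for Stat5b 0.20 (0.13, 0.330), for Hnf4a, a hepatocyte transcription factor, 0.12 (0.15, 0.645), and for Nfe2l2 (NRF2) -0.39 (0.15, 0.130). Over the 23 regulators tested, the median log2 fold change was 0.07.

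Among 29 other genes known to respond to CAR or PXR, 5 were called lower and 1 higher, with a median log2 fold change of -0.57. DESeq2 called 13 of the 29, and 17 had an unadjusted edgeR p under 0.05. The lower genes were Gsta1 (-3.98, edgeR adjusted p = 0.0246) and Gstm3 (-1.73, 0.0224), both glutathione transferases, Ephx1 (-1.37, 0.0117), the microsomal epoxide hydrolase, Cyp3a11 (-1.28, 0.0437) and Ugt2b35 (-0.72, 0.0357), a glucuronosyltransferase. The higher gene was Cyp2c54 (1.83, 0.00343). Gsta1 was at 10.2, 3.56 and 0.993 CPM in WT livers and at 0.188, 0.141, 0.563 and 0.278 CPM in KO livers. These KO levels are near the detection limit, so the size of its fall is poorly determined. Ephx1 was at 455, 552 and 320 CPM in WT and 132, 163, 179 and 209 CPM in KO livers. Here WT replicate 3 was again the lowest WT liver, as it was for Cyp2a22. Of 9 NRF2 targets, which encode antioxidant enzymes, 2 were lower, Nqo1 (-1.28, edgeR adjusted p = 0.0374) and Srxn1 (-1.08, 0.0103), and the median was -0.59. DESeq2 called 5 of the 9, and 8 had an unadjusted edgeR p under 0.05.

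The partners that P450 enzymes need were not called. Por had a log2 fold change of 0.06 (SE 0.27, edgeR adjusted p = 0.909), which was -0.03 when scaled by library size only. Of 6 electron donors and membrane partners and 8 genes of haem synthesis, 0 were called by edgeR, with medians of -0.18 and -0.08. An unadjusted p under 0.05 was reached by 3 and 2 of them, and DESeq2 called 1 and 0.

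Other genes of sex-dependent expression were examined because Cyp2a4, Cyp2b9 and Cyp2b13 belong to this class. All mice here were males. Of 16 male-biased liver genes tested, 5 were called higher and 0 lower, with a median log2 fold change of 0.86. They were Selenbp2 (3.16, edgeR adjusted p = 0.0264), a selenium-binding protein, Slco1a1 (1.74, 0.00736), an organic anion transporter, Cyp4a12a (0.0198), Cyp4a12b (0.0207) and Cyp7b1 (0.0271), whose fold changes are given above. Slco1a1 stood at 45.1, 64.4 and 72.0 CPM in WT and 272, 194, 202 and 140 CPM in KO livers, without overlap. DESeq2 called 8 of the 16, and 10 had an unadjusted edgeR p under 0.05. Of the 16, 13 had a positive and 3 a negative log2 fold change. Among the latter, chosen after its values were seen, was Elovl3, a fatty acid elongase, at 63.8, 66.8 and 57.7 CPM in WT livers and 18.7, 38.4, 54.6 and 21.6 CPM in KO livers. The genotypes did not overlap in it (log2 fold change -0.91, SE 0.31, edgeR adjusted p = 0.104, DESeq2 adjusted p = 0.0352).

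Of 9 female-biased genes tested out of 19 listed, 0 were called by edgeR and 2 by DESeq2, and 6 had an unadjusted p under 0.05. Of the 9, 7 had a negative log2 fold change, with a median of -1.05. A further look, made after the values were seen, showed WT replicate 3 low in some of these too. Hao2, a hydroxyacid oxidase, was at 18, 16 and 3.53 CPM in WT livers and 0.626, 1.41, 4.25 and 3.66 CPM in KO livers (log2 fold change -2.30, SE 0.59, edgeR adjusted p = 0.0648). Abcd2, a peroxisomal transporter, was at 21.4, 29.6 and 8.77 CPM in WT livers and 0.501, 8.52, 6.50 and 8.16 CPM in KO livers (-1.75, SE 0.60, adjusted p = 0.111). In both genes the third WT liver lay close to or within the KO range, as it did in Cyp2a4 and Cyp2b9. Both lists were written with earlier results of these data known.

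**Figure D5:**
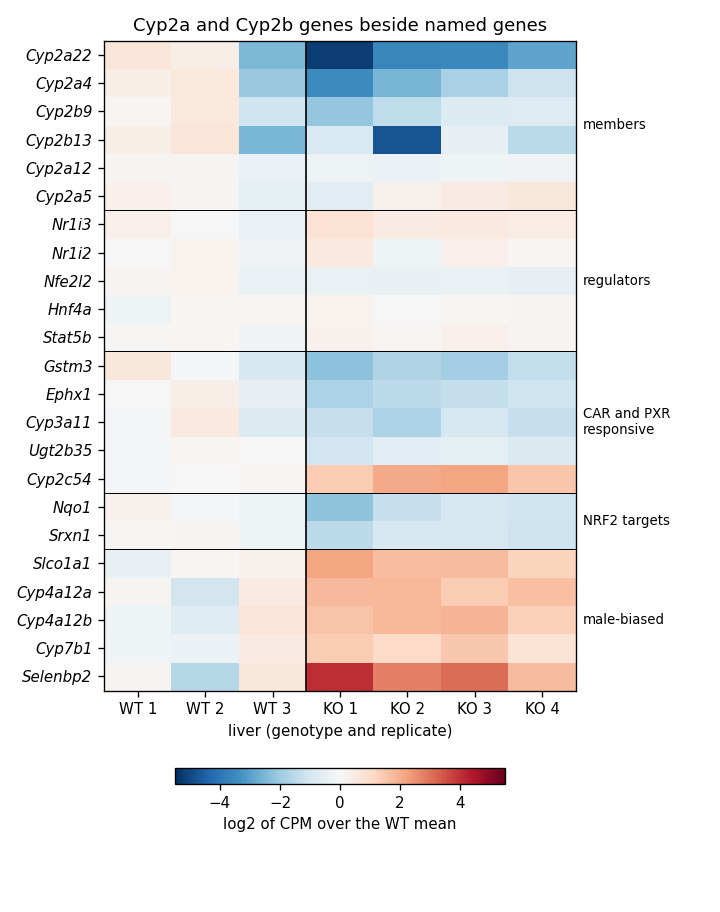
Log2 of the CPM over the WT mean (colour, blue lower and red higher) in 3 WT and 4 TET1 KO livers (columns) for 6 genes of the cluster and for named regulators, CAR and PXR responsive genes, NRF2 targets and male-biased genes (rows). The CAR and PXR responsive genes, NRF2 targets and male-biased genes shown were picked because they were called. The Cyp2a22 row is blue in all KO livers and in WT replicate 3. The rows of the 5 male-biased genes, those called higher of 16 tested, are red in the KO livers.

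Markers of the liver's cell types were set beside these values. Summed markers of pericentral hepatocytes, where many P450 genes are expressed, were at 8086 to 8584 CPM in WT and 5414 to 10158 CPM in KO livers, with a median log2 fold change of 0.04. Among 8 periportal markers, Cdh1 was called higher (2.01, edgeR adjusted p = 0.00958), a call that was lost without WT replicate 2 (adjusted p = 0.0771). Their sum was 3171 to 4304 CPM in WT and 2657 to 4349 CPM in KO livers. Cholangiocyte markers summed to 29.7 to 37.9 CPM in WT and 46.2 to 68 CPM in KO livers, with a positive log2 fold change in all 5 tested, while Cftr was at most at 0.232 CPM. Their sum was higher in every KO liver than in any WT liver.

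The sums of Kupffer cell and macrophage markers (206 to 338 CPM in WT and 156 to 338 CPM in KO livers), stellate markers (242 to 402 and 231 to 311 CPM) and T, NK and B cell markers (2.49 to 6.46 and 4.64 to 10 CPM) overlapped. Those of endothelial markers (145 to 147 and 121 to 140 CPM) did not. Apart from Cdh1, edgeR called 0 of the tested markers. DESeq2 called 2 hepatocyte, 0 pericentral, 2 periportal, 0 Kupffer cell and macrophage, 2 stellate, 1 endothelial, 2 cholangiocyte and 0 lymphocyte markers, and 2, 1, 3, 0, 2, 2, 4 and 0 of them had an unadjusted p under 0.05. The part of these cells in the levels of the Cyp2a and Cyp2b genes was not tested.

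The genes whose levels ran most like those of 3 members over the 7 livers were sought among 13191 other genes with a mean of at least 1 CPM, by Pearson's r of log2 CPM, as a description. For Cyp2a5 they were Sox7 (r = 0.975), Tcp11l2 (0.967) and Nqo2 (0.955). For Cyp2b9 they were Slc25a40 (0.982), Klhl24 (0.977) and Gm45208 (0.976). For Cyp2b10, whose level rests on few counts, they were Ogn (0.966), Vps11 (0.947) and Dkk3 (0.947). The points of each correlation are 7 livers that share their library and its scaling. Their edgeR adjusted p was 0.161 or above.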

How the data were processed

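RNA of 7 livers (3 WT, 4 TET1 KO) was sequenced by the authors from stranded libraries, and the labels give each library's group and replicate number. The authors deposited 1 table of raw read counts per gene and mouse, without normalization. The submitters' processing notes name Trimmomatic 0.36, GSNAP, featureCounts 1.5.3 and the build GRCm38, with no settings for strand or for reads that fit more than 1 gene. Libraries were joined by Ensembl identifier, and 5 repeated entries were left out. No pair of replicates agreed within sampling noise. The labels give no batch.

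Counts were tested in R 4.3.3 with edgeR 4.0.16 (filterByExpr, TMM, quasi-likelihood test, no covariates), and DESeq2 1.42.0 served as the alternative. The edgeR steps were tested on simulated data. The simulation gave every gene the same spread, so it does not cover genes that vary as widely between livers as Cyp2a22. CPM values are TMM-scaled, and log2 CPM for correlations used a prior count of 2. Standard errors came from the F statistic and the fold change. P-values measure the spread between these mice. Other settings were RLE size factors, library size only, robust dispersions, no filter, a minimum of 10 counts per library, a replicate block and each liver left out, and summed paralogs were added after seeing the data. Named are all 8 members, every called gene of the lists (1 of them is not reported here), the regulators Nr1i3, Nr1i2, Stat5b, Hnf4a and Nfe2l2, Por, and the 3 genes most like Cyp2a5, Cyp2b9 and Cyp2b10. The members and lists were chosen with earlier results of these data known. Gene coordinates and promoters are from RefSeq (GRCm38.p6), and exon lengths and coding sequences from GENCODE M1. Proteins were not analysed here. Figures were drawn with matplotlib 3.10.9.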

Additional observations from a re-analysis of the deposited data

Results flagged for a closer look

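A liver far from the other 3 of its group was looked for in 48 groups of KO values, by the gap to the nearest liver relative to the range of the group, and chance marks about 1 in 20 such groups. For Por the gap of KO replicate 4 was 0.849 of the range, above Dixon's critical value, at 319 CPM against 156 to 180 CPM in the other KO livers. For the summed pericentral hepatocyte markers the gap of KO replicate 1 was 0.941 of the range, at 5414 CPM. Cyp2e1, at 3953 CPM, made up most of this sum. Among the KO livers, KO replicate 1 was lowest in Cyp2e1, Oat, Glul and Slc1a2 but not in Cyp1a2, Axin2, Lgr5 and Rnf43. KO replicate 1 also had the lowest levels of all livers in Cyp2a22, Cyp2a4, Cyp2a5 and Cyp2b9, but not in Cyp2a12, Cyp2b10, Cyp2b13 and Cyp2g1. The 3 WT livers are too few for this rule, so WT replicate 3 was not judged by it.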

How the results depend on the processing

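The 298 called genes became 1316 with DESeq2, 592 with no filter, 1327 with the replicate block and 37 to 891 with single livers left out. The number of called genes in the lists, without the members and the cell type markers, was 14, and 32 with DESeq2, 27 with the replicate block and 2 to 23 with a liver left out. Of the 8 members, 1 was called, and 2 with no filter, 0 with robust dispersions and 0 to 2 with a liver left out. Of the other P450 genes 8 were called, 15 with DESeq2 and 2 to 12 with a liver left out. The genotypes did not overlap in 1 member, and in 1 to 5 with a liver left out (5 of 8 without WT replicate 3, where 30.8% of all tested genes did not overlap, and 2 of 8 without KO replicate 1, where 26.8% did not). Over all tested genes this share was 22.5% with 7 livers and 26.2% to 40.7% with a liver left out. WT replicate 3 was singled out after its levels were seen. It lay within the KO range in Cyp2a4, Cyp2b9 and Cyp2b13 and below it in Cyp2a12, so its removal makes these genes separate, whereas Cyp2a22 was separate with it too. Cyp2a22 missed the threshold with robust dispersions (-3.59, edgeR adjusted p = 0.0785) and its log2 fold change was -4.10 to -3.13 with a liver left out. The log2 fold change of Cyp2b10 was -1.20 to 0.00 with a liver left out (0.00 without WT replicate 2). The cause of these changes was not tested. Cyp2a5, Cyp2a12, Cyp2b9 and Cyp2b13 kept their direction and stayed uncalled under all 14 alternatives. Cyp2b10 and Cyp2g1 were filtered out under some settings and have no value there. Library size only moved the median gene by -0.09 (log2) against TMM, and 74.5% of its calls were lower, against 56.7%. Same-numbered WT and KO livers did not deviate together (r of 0.209, -0.123 and -0.0964), so the numbers were not taken as pairs. With the replicate block Cyp2a22 had a log2 fold change of -3.60 (edgeR adjusted p = 0.0373). Cyp2b10 and Cyp2g1 had no more than 32 counts in any liver, and whether depth limited their results was not tested.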
